A study of Mus musculus with 32 samples.

Results

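Lungs of tumor-bearing mice were compared between *Clic4* knockout (KO) and wildtype (WT) hosts. The comparison holds every lung library labelled as taken 14 days after orthografting, 6 from KO and 6 from WT mice, which is 12 of the 32 samples of the series. All hosts were female FVB/N mice, virgin littermates from crosses of heterozygotes and 6 to 8 weeks old when used. Cells of 6DT1, a mouse mammary tumor line, were injected into the fourth mammary fat pad of each tumor-bearing mouse. The implanted cells carry *Clic4* in both genotypes, so the hosts differ and the tumor cells do not. The lungs are labelled pre-metastatic. Lungs of 4 KO and 4 WT mice of the same strain without a tumor were used to look up the same genes. The KO is constitutive, so every host cell lacks the excised part of the gene. It was made on a mixed background and then backcrossed to FVB/N, and the labels give no litter, cage or batch for any lung.

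CLIC4 belongs to the chloride intracellular channel proteins, which occur both as soluble proteins with a glutathione S-transferase fold and in membranes. It is abundant in endothelial cells, where it takes part in the formation of the vessel lumen. TGF-β raises its level and moves it into the nucleus, where it prolongs the phosphorylation of Smad proteins. The question of the comparison is which genes differ between KO and WT lungs once a distant primary tumor is present.

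The excised part of *Clic4* surrounds exon 2. The exon is shown because it is the sequence whose loss defines the 6 KO lungs. It spans chr4:135238862-135238971 on the minus strand of GRCm38 in the longest coding transcript of GENCODE M21, which has 6 exons and 759 coding bases. All 110 bases of the exon are coding, and 2 are left after whole codons are counted. The exon is printed 5′ to 3′ in lower case, with no capitals.
*Clic4* exon 2: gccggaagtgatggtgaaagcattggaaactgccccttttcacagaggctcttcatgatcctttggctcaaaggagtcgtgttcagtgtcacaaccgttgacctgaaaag

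Whole lung tissue was sequenced, so fewer cells of a type and less RNA per cell cannot be told apart in any of the values. Gene counts per lung summed to 4567220 at the lowest and 6450362 at the highest of the 12. Of these, 8.33 to 11.2% fell on *Rn7sk*, *Rn7s1* and *Rn7s2*, abundant noncoding RNAs. Across the 30 pairs of lungs of one group, chi-squared per degree of freedom of the counts was 2.79 to 9.32, so no pair looked like one library deposited again. The lungs were rich in transcripts of alveolar type 2 cells (11426 to 14687 CPM summed over 12 markers), alveolar type 1 cells (5674 to 6334 CPM) and endothelium (5490 to 6296 CPM). CPM are counts scaled to a common library size with TMM factors. Of 13 markers of mammary epithelium and tumor cells, 8 could be tested and none had an FDR under 0.25. The milk and basal genes *Csn2*, *Csn3*, *Wap*, *Krt5* and *Krt14* had too few counts for a test. The list therefore does not tell how many tumor cells the lungs held.

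A pair of lungs stood apart, 1 of each genotype. Summed over 24 type I interferon effectors, such as the antiviral sensor *Oas3*, KO replicate 2 held 2839 CPM and WT replicate 5 held 2986 CPM. The other KO lungs held 467 to 507 CPM and the other WT lungs 401 to 797 CPM. The same pair was highest for the 16 GTPases induced by interferon-γ, at 3414 and 3179 CPM against 761 to 1429 CPM elsewhere. These lungs also had the lowest mean correlations with the other lungs, 0.965 and 0.966 against 0.969 to 0.973. Counts are therefore also given without both of them, an alternative chosen after seeing the data. KO replicate 6 stood out for erythroid genes, with 12294 CPM over 8 genes against 3270 to 7082 CPM in the other lungs.

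**Figure D1:**
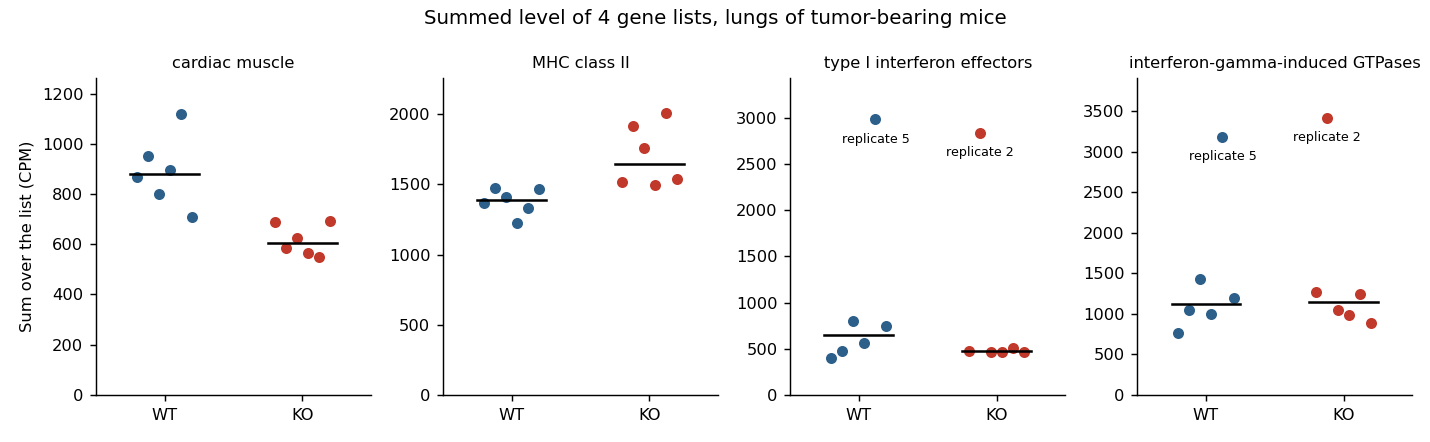
Summed level of 4 gene lists (y axes, CPM, starting at 0) in each lung of tumor-bearing mice, WT in blue and KO in red, with a black line at the median of 6 lungs. Cardiac muscle sums are lower in all KO lungs and MHC class II sums higher in all KO lungs, while KO replicate 2 and WT replicate 5 lie far above the rest for both interferon lists.

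*Clic4* (ENSMUSG00000037242, chr4:135213969-135272814, minus strand) had less RNA in every KO lung. It lay between 225 and 287 CPM in KO lungs (median 247) and between 603 and 882 CPM in WT lungs (median 648). Its FPKM, a level per transcript length and depth, were 65.1 ± 7.49 (SD, n = 6) against 181 ± 30.6 (SD, n = 6; two-sided exact permutation p = 0.00216, which is the lowest possible with 6 lungs a side). The KO mean was 35.7% of the WT mean in CPM, and the log2 fold change was -1.49 (SE 0.09, FDR 2.06e-09). The paper states that the *Clic4* reads left in KO lungs map outside the excised stretch around exon 2. It detected no CLIC4 protein in lung fibroblasts isolated from KO mice. Counts used here do not separate exons, so the position of these reads within *Clic4* was not tested. None of the other chloride intracellular channel genes tested was called at any limit used. *Clic5*, which marks type 1 alveolar cells, lay at 942 to 1160 CPM in KO and 1037 to 1130 CPM in WT lungs. The log2 fold changes were 0.01 for *Clic1*, 0.08 for *Clic3*, -0.06 for *Clic5* and 0.17 for *Clic6*, with SEs of 0.05 to 0.09 and FDRs of 0.682 to 0.978.

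Beyond *Clic4*, few genes were called and most of their differences were small. Of 16029 genes tested, 34 (0.212%) passed both an FDR of 0.25 and a 1.5-fold change, with 17 higher and 17 lower in KO lungs (0.106% each). The study gave both limits for lungs of tumor-bearing against control mice of the same genotype. FDR is the Benjamini-Hochberg adjusted p over all genes tested with edgeR's quasi-likelihood test. With no fold limit, 138 genes (0.861%) passed, with 63 higher (0.393%) and 75 lower (0.468%), and 104 of them changed by less than 1.5-fold. An FDR of 0.05 was passed by 15 genes (0.0936%), 8 higher (0.0499%) and 7 lower (0.0437%). The KO and WT ranges did not overlap for 88 genes (0.549%), with all KO lungs higher for 41 (0.256%) and lower for 47 (0.293%). An unadjusted p under 0.05 was found for 1337 genes (8.34%). A gene is called below when its FDR was under 0.25, a lenient limit. Without both interferon-high lungs, 62 genes were called and 54 of them were among the 138. Leaving out KO replicate 1 gave 218 calls, while leaving out KO replicate 5 gave 74 and WT replicate 1 gave 69. DESeq2 gave 262 calls, 78 of them among the 138, and a fit of the compared groups alone gave 41. No call of the 138 changed its direction in any of the alternatives. Genes called higher had a median GC content of 54.5%, against 49.7% for those called lower and 49.9% over all genes tested. With offsets for GC content, 134 of the 138 genes were called again, among 216.

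Genes close to *Clic4* on chromosome 4 were called far above the background share. Within 10 Mb of *Clic4*, 238 other genes were tested and 16 were called (6.72%), against 121 of 15790 genes elsewhere (0.766%). Of the 16, 11 were higher and 5 lower in KO lungs, and 6 also passed the 1.5-fold limit. By distance, 6 of 36 genes were called within 1 Mb (16.7%), 2 of 31 between 1 and 2 Mb (6.45%), 7 of 73 between 2 and 5 Mb (9.59%) and 1 of 98 between 5 and 10 Mb (1.02%). KO and WT lungs did not overlap for 10 of the 238 genes (4.20%), against 77 of the 15790 elsewhere (0.488%). Between 10 and 20 Mb, *Hpcal4* was the 1 gene called of 224, and no gene was called among 471 farther away. A window of 5 Mb held 15 called genes and one of 20 Mb held 17. Without KO replicate 5 the 10 Mb window held 10 called genes, and without both interferon-high lungs it held 8, all among the 16. How far strain differences linked to the excised exon extend was not measured here, and for these genes an effect of the lost protein and a linked difference of the founder strain cannot be told apart in these data.

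**Figure D2:**
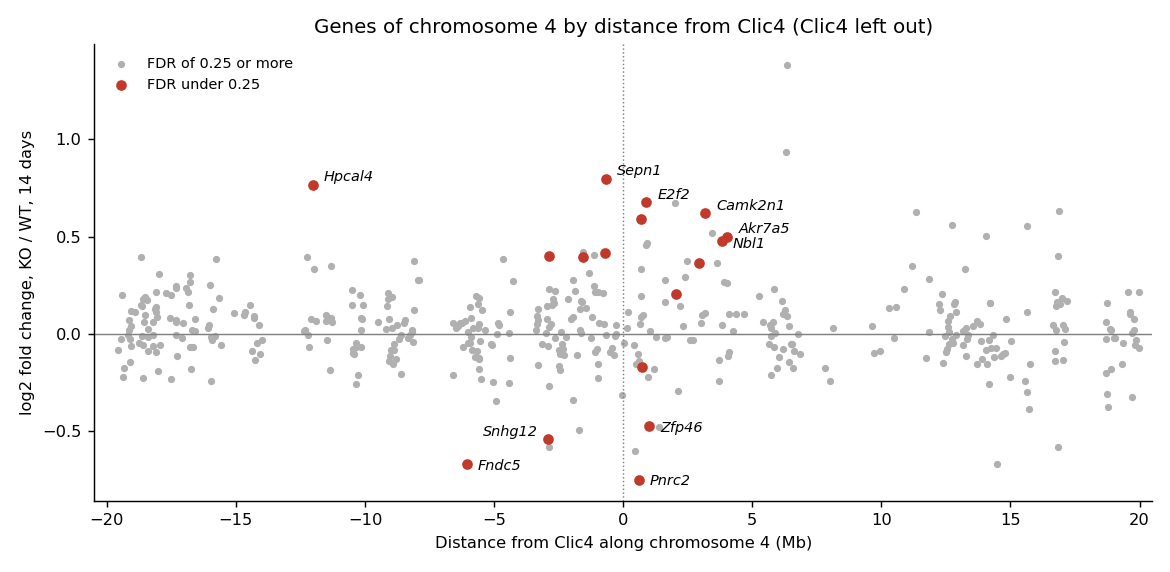
Log2 fold change of KO over WT lungs of tumor-bearing mice (y axis) against distance from *Clic4* in Mb (x axis, negative towards lower coordinates) for genes of chromosome 4 within 20 Mb, each point 1 gene and red points called at an FDR under 0.25. Of the 17 red points, 15 lie within 5 Mb on either side, and the other two are *Fndc5* and, beyond 10 Mb, *Hpcal4*.

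Of the flanking genes, *Sepn1*, *Pnrc2* and *Zfp46* lie about 1 Mb or less from *Clic4* and separated the genotypes in every lung. *Sepn1*, a selenoprotein of the endoplasmic reticulum that takes part in redox control and calcium handling, lay between 44.5 and 49.6 CPM in KO lungs (median 48.0) and between 23.8 and 29.3 CPM in WT lungs (median 27.9). All KO lungs were above all WT lungs, and the log2 fold change was 0.80 (SE 0.07, FDR 7.57e-07). *Pnrc2*, a nuclear receptor coactivator that also promotes mRNA decay, lay between 36.1 and 44.0 CPM in KO and between 62.8 and 80.2 CPM in WT lungs. It was lower in all KO lungs (log2 fold change -0.75, SE 0.07, FDR 1.93e-06). *Zfp46*, a zinc finger protein, lay at 21.3 to 24.9 CPM in KO and 26.5 to 33.4 CPM in WT lungs, a log2 fold change of -0.48 (SE 0.08, FDR 0.00829). *Sepn1* (chr4:134537892-134552166) lies 0.66 Mb below *Clic4*. *Pnrc2* (chr4:135870918-135873850) and *Zfp46* (chr4:136284683-136293942) lie 0.60 and 1.01 Mb above it. These 3 genes were called in each of the 12 fits that left out one lung. They were also called without both interferon-high lungs, with FDRs of 1.02e-05 to 0.00220.

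*Nbl1* and *Camk2n1*, 3.81 and 3.18 Mb above *Clic4*, also passed an FDR of 0.05. *Nbl1*, a secreted antagonist of bone morphogenetic proteins, lay at 74.1 to 120 CPM in KO (median 96.3) and 65.2 to 76.7 CPM in WT lungs (median 66.5), and the ranges overlapped. Its log2 fold change was 0.48 (SE 0.09, FDR 0.0370) and its FDR was 0.206 with GC offsets. *Camk2n1*, an inhibitor of calcium/calmodulin-dependent kinase II, lay at 21.1 to 31.6 CPM in KO and 16.3 to 19.9 CPM in WT lungs with no overlap, a log2 fold change of 0.62 (SE 0.12, FDR 0.0491).

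Another 10 called flanking genes had FDRs between 0.0721 and 0.245. *Hp1bp3*, a heterochromatin protein related to linker histones, was higher in all KO lungs, at 142 to 203 CPM against 130 to 141 CPM. *E2f2*, a transcription factor of the cell cycle, had a log2 fold change of 0.68 (SE 0.16) with overlapping ranges, and its highest KO lung was replicate 6, at 33.8 CPM, which also held the most erythroid RNA. Without that lung its log2 fold change was 0.51 (FDR 0.218), under the 1.5-fold limit, and without WT replicate 1 its FDR was 0.253. *Zdhhc18*, a palmitoyltransferase, was higher (log2 fold change 0.40, SE 0.09), as was *Cdc42*, a small GTPase of cell polarity (0.21, SE 0.05). *Akr7a5*, an aldehyde reductase, was higher by 0.50 (SE 0.12) with no overlap, and *Paqr7*, a membrane progestin receptor, by 0.42 (SE 0.11). The small nucleolar RNA *Snora73a* was higher by 0.40 (SE 0.09), but it lies within *Snhg3* and *Rcc1* on the same strand, so its reads may belong to them. Lower in KO lungs were *Fndc5*, the precursor of irisin (log2 fold change -0.67, SE 0.17), *Snhg12*, a host gene of small nucleolar RNAs (-0.54, SE 0.16), and *Tceb3*, elongin A (-0.17, SE 0.05). Of these 10 genes, *Snora73a* (FDR 0.227) and *Cdc42* (FDR 0.242) were called without both interferon-high lungs.

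**Figure D3:**
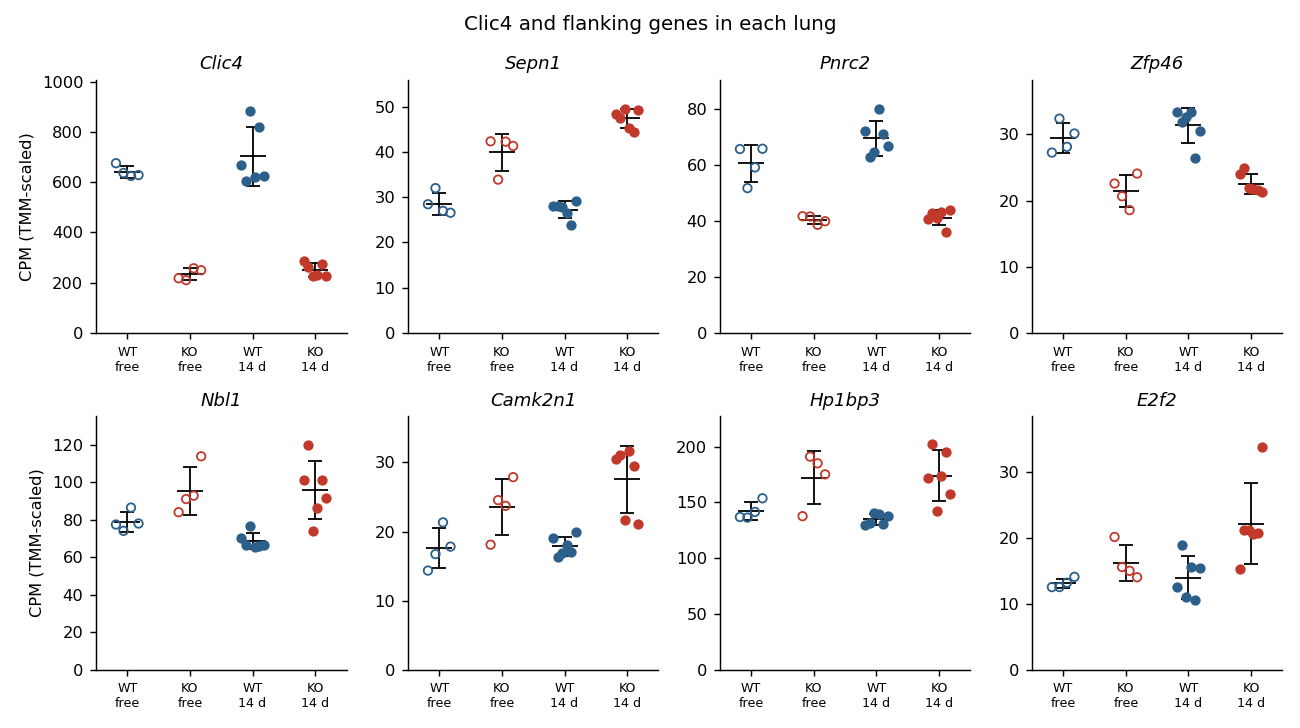
CPM (y axes, starting at 0) of *Clic4* and 7 called genes within 5 Mb of it in each lung, with WT in blue, KO in red, open circles for tumor-free mice and filled circles for tumor-bearing mice at 14 days, and bars for the mean and SD. In tumor-bearing mice, the KO and WT points do not overlap for *Clic4*, *Sepn1*, *Pnrc2*, *Zfp46*, *Camk2n1* and *Hp1bp3*, and they overlap for *Nbl1* and *E2f2*.

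Outside this region, 121 genes were called, 52 higher and 69 lower in KO lungs, and 27 passed the 1.5-fold limit, 13 higher and 14 lower. An FDR of 0.05 was passed by 8 of the 15790 genes. They are *Cdk19*, *Igfbp5*, *Ntrk2* and *Sema3c*, which were higher, and *Myh6*, *Flt1*, *Lyve1* and *C920021L13Rik*, which were lower. *Cdk19*, *Igfbp5* and *Sema3c* changed by less than 1.5-fold and are named because their FDRs were seen to be low. Without both interferon-high lungs, 45 of the 121 genes were called and all 121 had the direction they had with all lungs.

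Among genes higher in KO lungs, *Ntrk2* had the smallest p of those that passed the fold limit. *Ntrk2*, the receptor TrkB of brain-derived neurotrophic factor, lay at 10.2 to 17.1 CPM in KO (median 14.2) and 4.67 to 10.0 CPM in WT lungs (median 5.80). Every KO lung was above every WT lung, and the log2 fold change was 1.08 (SE 0.20, FDR 0.0294). *Cemip*, which starts the breakdown of hyaluronan, had the largest fold among the genes called higher that the naming rule gives, with 1.88 to 3.63 CPM in KO and 0.329 to 1.85 CPM in WT lungs. Its log2 fold change was 1.65 (SE 0.33, FDR 0.0543), at levels of few counts. *Dmkn*, a secreted protein of stratified epithelia, rose by 0.82 (SE 0.18), *Gjb2*, connexin 26, by 0.90 (SE 0.20), *B3gnt7*, a glycosyltransferase of keratan sulfate, by 0.60 (SE 0.13) and *1810041L15Rik* by 0.69 (SE 0.15), with FDRs of 0.0721 to 0.0767. KO and WT lungs did not overlap for any of these 4. *Loxl1*, which cross-links elastin, *Slc26a10*, a member of an anion transporter family, and the noncoding RNAs *1700048O20Rik* and *Gm37233* rose by 0.60 to 1.06, with FDRs of 0.115 to 0.163. *Slc26a10* overlaps *B4galnt1* on the other strand, and whether RSEM used the strand is not given in the sources used here. *Cdk19*, a kinase of the Mediator complex, lay at 71.9 to 88.6 CPM in KO and 48.4 to 68.2 CPM in WT lungs (log2 fold change 0.50, SE 0.07, FDR 0.00301). *Igfbp5*, which binds insulin-like growth factors, and *Sema3c*, a secreted guidance protein, were higher in all KO lungs by 0.33 (SE 0.06) and 0.31 (SE 0.06). Of the 10 genes named by the rule, *Ntrk2*, *Cemip*, *1810041L15Rik*, *Dmkn* and *Gjb2* stayed past both limits with each lung left out, and the others in 6 to 11 of the 12 fits.

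Among genes lower in KO lungs, *Myh6* stood first. *Myh6*, the α-myosin heavy chain of heart muscle, lay at 299.9 to 369.8 CPM in KO (median 315) and 409 to 660 CPM in WT lungs (median 510). The ranges did not overlap, and the log2 fold change was -0.66 (SE 0.10, FDR 0.00310). Without WT replicate 5, the lung with the most *Myh6*, it was -0.57, under the 1.5-fold limit. *Lyve1*, the hyaluronan receptor of lymphatic endothelium and some macrophages, lay at 60.6 to 152 CPM in KO (median 87.4) and 128 to 253 CPM in WT lungs (median 169), a log2 fold change of -0.92 (SE 0.18, FDR 0.0491). *Hrc*, a calcium-binding protein of the sarcoplasmic reticulum of muscle, fell by 0.73 on the log2 scale (SE 0.16) with no overlap. *Ppp2r2c*, a regulatory subunit of protein phosphatase 2A, and *Efcab5* also separated the groups, with log2 fold changes of -0.82 and -0.76. *C920021L13Rik*, which lies antisense to *Ciart*, was lower (log2 fold change -0.65, SE 0.13, FDR 0.0491) in all KO lungs, and reads of the pair cannot be told apart without the strand. The uncharacterised transcripts *RP23-287A8.1* and *RP23-370G17.3* and the long noncoding RNA *Gm26561* had log2 fold changes of -0.60, -1.05 and -2.80. *Gm26561* had an SE of 0.71, with 0 to 1.15 CPM in KO and 0 to 6.88 CPM in WT lungs, and it overlaps several coding genes. *RP23-370G17.3* lies within *Mlxip* and *Gm38252* within *Maml3*, each on the same strand, so their reads may be shared. *Lyve1* and *Hrc* stayed past both limits with each lung left out, and *Myh6*, *C920021L13Rik*, *RP23-287A8.1*, *Ppp2r2c*, *RP23-370G17.3*, *Efcab5* and *Gm26561* in 6 to 11 of the 12 fits. A further 7 genes past both limits were *Col1a1*, *Marco* and *Hpcal4*, which were higher, and *Esm1*, *Kcnj3*, *Gm10309* and *Gm38252*, which were lower, with FDRs of 0.143 to 0.245. They stayed past both limits in 1 to 7 of the 12 fits.

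**Figure D4:**
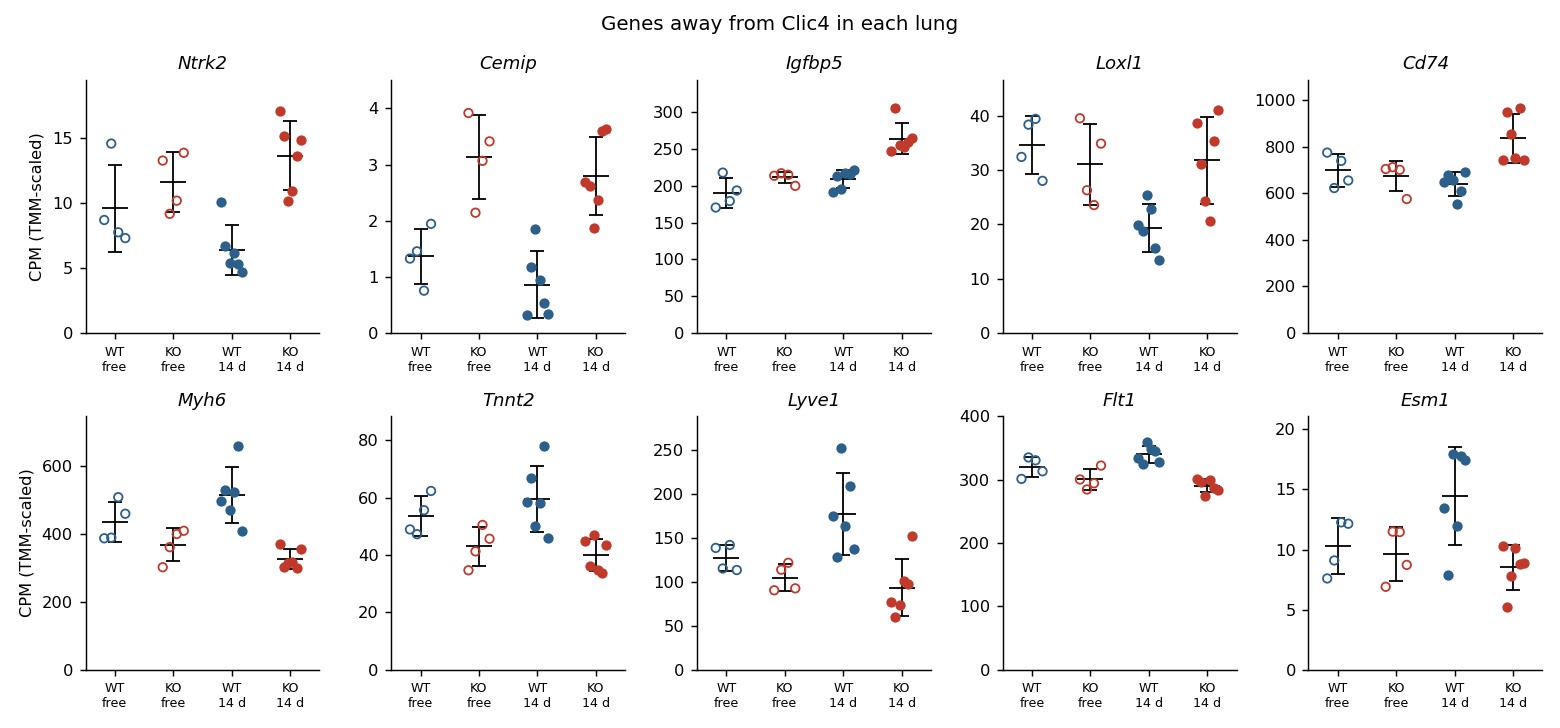
CPM (y axes, starting at 0) of 10 genes called away from *Clic4* in each lung, with WT in blue, KO in red, open circles for tumor-free mice and filled circles for tumor-bearing mice at 14 days, and bars for the mean and SD. In tumor-bearing mice, *Ntrk2*, *Cemip*, *Igfbp5* and *Cd74* are higher in all KO lungs and *Myh6* and *Flt1* lower in all KO lungs, while the points overlap for *Loxl1*, *Tnnt2*, *Lyve1* and *Esm1*.

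Most listed genes of cardiac muscle were lower in KO lungs. This list, like the others, was chosen with earlier results of these data known, so its share of calls is a description. In mice, heart muscle extends from the left atrium along the pulmonary veins into the lung. Of 10 listed genes, 6 were called lower and none higher, against 0.468% of all genes called lower, and the median log2 fold change was -0.42 against 0.00 over all genes. Beside *Myh6*, these were the troponins *Tnnt2* (-0.57, SE 0.12, FDR 0.0711) and *Tnni3* (-0.51, SE 0.11, FDR 0.0721), the calcium release channel *Ryr2* (-0.43, SE 0.10, FDR 0.0721), the myosin-binding protein *Mybpc3* (-0.53, SE 0.13, FDR 0.129) and the atrial light chain *Myl4* (-0.40, SE 0.11, FDR 0.229). *Tnnt2* lay at 33.9 to 46.9 CPM in KO and 46.0 to 78.1 CPM in WT lungs, which overlapped, and *Ryr2* at 54.0 to 72.2 and 73.3 to 110 CPM, which did not. *Tnni3* overlaps *Dnaaf3* on the same strand. The other 4 genes were not called, with log2 fold changes of -0.40 for *Myl7*, -0.31 for *Sln*, -0.08 for *Actc1* and 0.56 (SE 0.47) for *Nppa*. Summed over the list, where *Myh6* gave much of the level, KO lungs held 551 to 693 CPM and WT lungs 711 to 1118 CPM, with no overlap. WT replicate 5 held the most, and without it 5 of the genes were called. Left out one at a time, the lungs left between 4 and 7 called, and without both interferon-high lungs *Myh6* and *Tnni3* were called. Outside the list, *Ttn* (-0.45, SE 0.11), *Cmya5* (-0.46, SE 0.12), *Hrc* and the atrial potassium channel gene *Kcnj3* (-0.94, SE 0.26), singled out after their values were seen, were also called lower. Of 8 skeletal muscle genes, such as *Myh1* and *Acta1*, 6 had too few counts for a test and the other 2 were not called. How much muscle each piece of lung held is not given in the labels, and its part in these differences was not tested.

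A few endothelial genes were called lower, mostly by small amounts, and most were not called. Over all genes tested, 0.468% were called lower and 0.393% higher. *Flt1*, VEGF receptor 1, lay at 275 to 301 CPM in KO and 325 to 360 CPM in WT lungs, with no overlap and a log2 difference of -0.23 (SE 0.04, FDR 0.0360). *Flt4*, VEGF receptor 3 of lymphatic vessels, was lower (log2 fold change -0.26, SE 0.07, FDR 0.234) and was called in 4 of the 12 fits that left out a lung. These were the 2 of 10 VEGF ligands and receptors called, and the other 8 had log2 fold changes between -0.14 and 0.24, with -0.03 (SE 0.06) for *Vegfa* and 0.04 (SE 0.05) for *Kdr*. Of 14 markers of lung endothelium, *Ptprb*, a receptor phosphatase of vessels, was lower (log2 fold change -0.22, SE 0.05, FDR 0.103) and *Car4*, a marker of capillaries and also of the macrophage list, was higher by 0.20 (SE 0.05, FDR 0.218). *Pecam1* and *Cdh5*, which all endothelium expresses, had log2 fold changes of 0.01 and -0.02 (SE 0.04 each). The summed endothelial level was 5490 to 5826 CPM in KO and 5821 to 6296 CPM in WT lungs. Of 6 lymphatic markers, *Lyve1* and *Flt4* were called lower, and the others were not, with log2 fold changes of -0.27 (SE 0.20) for *Prox1*, the lymphatic master regulator, -0.24 for *Pdpn*, 0.07 for *Mmrn1* and 0.14 for *Reln*. Among 24 other genes of vessel growth, *Esm1*, a tip cell proteoglycan, was called lower (-0.77, SE 0.20, FDR 0.143) and the chemokine *Cxcl12* higher (0.30, SE 0.07, FDR 0.0962), with a list median of -0.08. *Stab1*, a scavenger receptor of sinusoidal endothelium and macrophages, was lower in all KO lungs (log2 fold change -0.30, SE 0.08) and was picked out after its value was seen. Of these genes, *Flt1* and *Cxcl12* were called without both interferon-high lungs, with *Lyve1* (FDR 0.208).

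Of 11 listed MHC class II genes, 3 were called higher in KO lungs and none lower. All 11 had log2 fold changes above 0, with a median of 0.31 against 0.00 over all genes, of which 0.393% were called higher. This list too was chosen with earlier results of these data known. *Cd74*, the invariant chain, lay at 743 to 969 CPM in KO (median 804) and 552 to 694 CPM in WT lungs (median 653), with no overlap and a log2 difference of 0.39 (SE 0.08, FDR 0.0669). *H2-Ab1*, a chain of the class II molecule I-A, was higher by 0.31 (SE 0.08, FDR 0.129) and *H2-DMa*, which loads peptides, by 0.43 (SE 0.12, FDR 0.234), although *H2-DMa* overlaps *Brd2* on the other strand. Their regulator *Ciita* had a log2 fold change of 0.33 (SE 0.10) and an FDR of 0.324. Summed over the list, where *Cd74* gave much of the level, KO lungs held 1496 to 2010 CPM and WT lungs 1227 to 1470 CPM, with no overlap. Left out one at a time, the lungs left between 1 and 4 class II genes called, with *Cd74* alone called without KO replicate 2, KO replicate 5, WT replicate 1 or WT replicate 4. *Cd74* was called with each lung left out and without both interferon-high lungs (FDR 0.237). *H2-Ab1* and *H2-DMa* were not called without both those lungs, at FDRs of 0.352 and 0.430, nor with GC offsets, at 0.253 and 0.264. Class II is expressed by B cells, dendritic cells, macrophages and type 2 alveolar cells, and none of 10 B cell, 9 dendritic cell, 12 interstitial macrophage and monocyte and 12 type 2 markers was called. Of 12 alveolar macrophage markers, *Car4* and *Marco* were called higher. B cell markers all had log2 fold changes above 0 (median 0.31) and type 2 markers too (median 0.10). The part of these cell types in the class II values was not tested.

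Other immune lists gave few calls or none, where 0.861% of all genes tested were called. No gene was called among 16 interferon-γ-induced GTPases (median log2 fold change 0.04), 16 interferon signalling factors (-0.04), 24 type I interferon effectors (-0.22, with 20 below 0) and 15 genes of MHC class I and peptide loading (0.09). In the interferon lists, KO replicate 2 and WT replicate 5 were the highest lungs, as with *Oas3* at 4.38 to 24.7 CPM in KO and 3.95 to 43.4 CPM in WT lungs. Without both these lungs the median was -0.48 for the type I effectors and -0.06 for the GTPases, and no gene of either list was called. Without KO replicate 2 alone, *Ifit1* was called lower (log2 fold change -2.17, FDR 0.247), but that fit kept the interferon-high WT replicate 5. The 36 NF-κB targets and immediate early genes tested had a median of -0.14 and no call, and *Nfkb1* itself had a log2 fold change of -0.12 (SE 0.04, FDR 0.362). No call was made among 16 chemokines and cytokines, 18 complement genes, or the markers of T, NK, B and plasma cells, neutrophils, monocytes, dendritic cells, mast cells and platelets. The alveolar macrophage list gave 2 calls of 12, *Car4* and the scavenger receptor *Marco*, which lay at 4.72 to 12.3 CPM in KO and 2.81 to 5.59 CPM in WT lungs (log2 fold change 0.86, SE 0.24, FDR 0.234). *Marco* was called in 4 of the 12 fits that left out a lung, and *Siglecf*, another defining gene of these macrophages, had a log2 fold change of -0.12 (SE 0.19). Genes of the premetastatic niche, among them *S100a8*, *S100a9*, *Mmp9* and *Lcn2*, had 0 calls of 11 (median 0.02), and the smallest FDR was 0.766.

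The TGF-β pathway showed 3 called genes of 46 list entries, against 0.861% of all genes called. Among 12 ligands and activators, *Ltbp4*, which holds latent TGF-β in the matrix, was higher by 0.36 (SE 0.10, FDR 0.245), at 214 to 303 CPM in KO and 162 to 233 CPM in WT lungs. *Tgfb1* had a log2 fold change of 0.47 (SE 0.15) and an FDR of 0.304. No receptor or Smad gene of 15 was called, with a median log2 fold change of -0.02, -0.02 (SE 0.08) for *Smad2* and 0.06 (SE 0.10) for *Smad3*. Of 19 target genes, *Pmepa1*, a feedback inhibitor of the pathway, was higher in all KO lungs by 0.53 (SE 0.13, FDR 0.111) and *Col1a1*, a chain of type I collagen, by 0.65 (SE 0.18, FDR 0.205), while *Ctgf* (-0.34) was not called. Among 33 genes of fibrillar collagens and matrix processing, *Col1a1* and *Loxl1* were called higher and the median was 0.03, with 0.21 for *Col1a2* and 0.05 for *Col3a1*. Without both interferon-high lungs none of these 4 genes was called, at FDRs of 0.386 for *Ltbp4*, 0.265 for *Pmepa1*, 0.430 for *Col1a1* and 0.326 for *Loxl1*. With each lung left out in turn, *Ltbp4* was called in 3 of the 12 fits, and *Pmepa1* in 11, the exception being without WT replicate 1 (FDR 0.261).

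Metabolic and housekeeping lists gave almost no call. Of 37 complex I genes, 38 genes of complexes II to V, 13 mitochondrial genes, 22 genes of cholesterol synthesis, 19 clock genes and 19 cell cycle genes, none was called, and the medians ranged from -0.13 for the clock to 0.10 for the cell cycle. Among 23 antioxidant genes, *Sepn1* near *Clic4* was the 1 called. Alveolar, club, ciliated, smooth muscle, pericyte, mesothelial and fat markers gave no call, and the fibroblast list gave *Col1a1*. In all, 23 distinct genes of the 631 tested on 49 lists were called, 11 higher and 12 lower, against 138 of all 16029 genes (0.861%), and 9 were called when the fit held the compared groups alone.

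**Figure D5:**
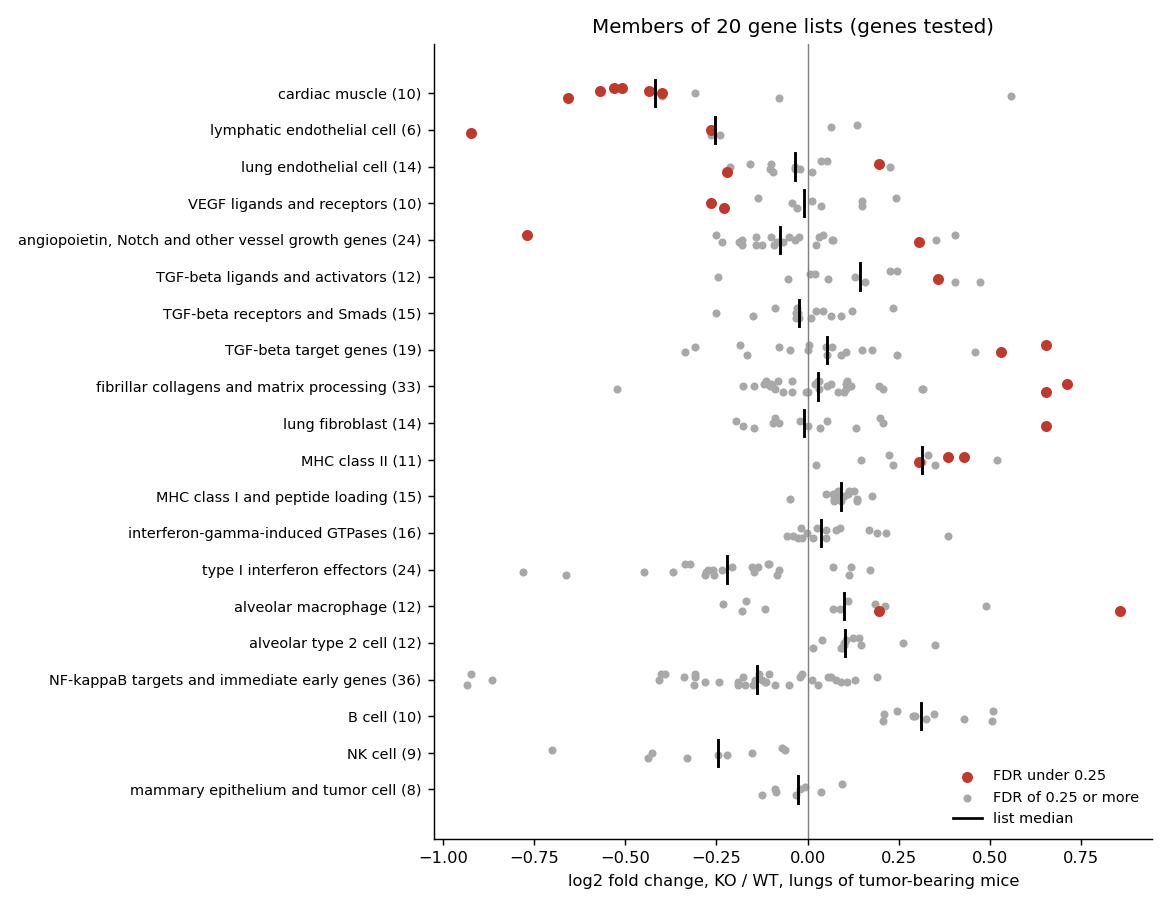
Log2 fold change of KO over WT lungs of tumor-bearing mice (x axis) for each gene tested on 20 of the 49 lists (rows, with the number of genes tested), red where the FDR was under 0.25, with a black line at the list median. Of the cardiac muscle genes, 9 of 10 lie left of 0 and 6 are red, and all 11 MHC class II genes lie right of 0 with 3 red.

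Lungs of tumor-free mice give a contrast of their own libraries, but both contrasts share the fit and its estimate of the spread, so the calls above are not independent of these lungs. In them, 37 of the 16029 genes (0.231%) passed both limits, 156 (0.973%) an FDR of 0.25 and 3 (0.0187%) an FDR of 0.05. *Clic4* had a log2 fold change of -1.45 (SE 0.11) there. All 6 flanking genes with an FDR under 0.05 in tumor-bearing lungs had the same sign and an unadjusted p under 0.05 in tumor-free lungs, and 4 had an FDR under 0.25. Among these 4, the log2 fold change was 0.49 for *Sepn1*, -0.59 for *Pnrc2* and -0.46 for *Zfp46*. Of all 16 called flanking genes, 10 had the same sign and 8 of these an unadjusted p under 0.05 (50.0% of the 16). Of the 121 genes called elsewhere, 75 had the same sign (62.0%), against 53.4% of all genes tested, and 14 of these had an unadjusted p under 0.05 (11.6%). Over all 16028 genes tested other than *Clic4*, 1033 had the same sign and an unadjusted p under 0.05 (6.44%). Among the 14 were *Cdk19* (0.32, SE 0.09), *Sema3c* (0.23, SE 0.07) and *Cemip* (1.17, SE 0.36). Cardiac muscle genes had a median of -0.22 in tumor-free lungs and MHC class II genes one of -0.05.

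The difference between both contrasts was tested gene by gene, and 8 genes (0.0499%) had an FDR under 0.25. All 8 had a log2 fold change above 0 in tumor-bearing and below 0 in tumor-free lungs. *Nfix*, a transcription factor of the nuclear factor I family, lay at 58.2 to 70.2 CPM in KO and 43.0 to 54.5 CPM in WT lungs of tumor-bearing mice (log2 fold change 0.37, SE 0.08, FDR 0.0803). In tumor-free lungs its log2 fold change was -0.49 (SE 0.10), and the difference of 0.86 had an FDR of 0.0240. With GC offsets *Nfix* was the 1 gene left of the 8, and with each lung left out the number ranged from 1 to 127, with 127 without tumor-free KO replicate 1 and 123 without tumor-bearing WT replicate 3. None of the 16 flanking genes was among the 8.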

How the data were processed

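RNA of 32 samples was sequenced from TruSeq Stranded mRNA libraries, and the 20 lung libraries were used here. The authors aligned reads with STAR to mm10 and quantified genes with RSEM. The deposited expected counts are whole numbers per gene, and the deposited FPKM come from the same step. Whether RSEM used the strand is not given in the sources used here. Counts were tested with edgeR 4.0.16 in R 4.3.3, with TMM scaling, filterByExpr and quasi-likelihood tests over all 20 lungs with 1 mean per group, so the comparison borrows its spread from tumor-free lungs too. SE is the fold change over the root of the F statistic, and FDR is the Benjamini-Hochberg value over 16029 genes. Positions and GC content came from GENCODE M21 (29244 of 29511 genes matched). *Clic4* was also compared as log2(FPKM + 1) by an exact permutation test. The procedure was tested on simulated data. Nothing in the labels says that the lungs were prepared apart, so p-values measure the spread between these samples.

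Genes named are *Clic4* and its paralogs, the 12 called genes within 10 Mb with the smallest p, the 10 genes elsewhere past both limits with the smallest p in each direction, and of each list up to 4 called members or, with none, the member with the smallest p. Other genes are given only to complete a count of few genes or as list examples. The 49 lists, the members and the limits were chosen with earlier results of these data known. Alternatives were DESeq2 1.42.0, other scaling, filters, windows, limits and pseudocounts, GC offsets, a replicate block, the compared groups alone and leaving out lungs. Tumor tissue libraries were not analysed here. A few genes that the rule names are not reported here.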

Additional observations from a re-analysis of the deposited data

Results flagged for a closer look

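Over 110 named genes, 220 groups of 6 lungs were searched for a lung far from the rest by Dixon's ratio, and 17 were found, where chance flags about 1 group in 20. KO replicate 2 was far above the other KO lungs for the interferon-induced genes *Gbp8* (32.9 CPM) and *Oas3* (24.7 CPM), for *Cdk1* (4.49 CPM), *Igfbp5* (306 CPM) and *Sema3c* (896 CPM). WT replicate 5 was far above the other WT lungs for *Oas3* (43.4 CPM), the muscle genes *Ryr2* (110 CPM) and *Cmya5* (56.4 CPM), and *Snhg12* (9.88 CPM). KO replicate 6 stood out for *E2f2* (33.8 CPM), KO replicate 5 for *RP23-370G17.3* (2.99 CPM), and KO replicate 1 for *Cxcl2* (3.14 CPM) and *Gm38252* (2.69 CPM). WT replicate 6 was high for *H2-DMa* (28.4 CPM) and *Paqr7* (42.1 CPM). WT replicate 4 was high for *Tceb3* (91.8 CPM) and low for *Cma1* (0.937 CPM).

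For 8 genes the KO to WT difference itself differed between tumor-bearing and tumor-free lungs at an FDR under 0.25 by edgeR's interaction test. That number was 1 with GC offsets, 1 with the replicate block and 195 with DESeq2. The difference of log2 fold changes, tumor-bearing minus tumor-free, was 0.86 for *Nfix* (FDR 0.0240), 0.58 for *Mgat4b* (FDR 0.157) and 1.33 for the pseudogene *Rpl15-ps3* (FDR 0.157), whose reads may belong to *Rpl15*. It was 0.50 for *Lrp10* (FDR 0.178), 0.79 for *Ltbp4* (FDR 0.205) and 0.67 for *Rnf44* (FDR 0.205). It was 0.37 for *Zc3h7b* and 0.74 for *Prrc2a* (FDR 0.218 for each).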

How the results depend on the processing

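*Clic4* kept its direction and its call in each alternative tried, at -1.53 to -1.41 with each lung left out, and no gene of the 138 turned its sign. The counts moved more. The 34 genes past both limits became 7 with DESeq2, 18 when the fit held the compared groups alone, 9 at an FDR of 0.05 with 1.5-fold, 138 with no fold limit and 6 with 2-fold, and 22 (without WT replicate 1) to 52 (without KO replicate 1) with each lung left out. DESeq2 gave 10881 of the 16029 genes no adjusted p, 27 of the 34 among them. Without its independent filtering, an alternative chosen after seeing the data, it gave 41. The 15 genes at an FDR of 0.05 became 62 with DESeq2, 65 without its independent filtering, 6 with the compared groups alone and 7 to 22 with each lung left out, with 7 without KO replicate 2, KO replicate 5 or WT replicate 4 and 9 without WT replicate 2 or 5. The 138 genes at an FDR of 0.25 became 262 with DESeq2, 41 with the compared groups alone, 216 with GC offsets and 69 to 218 with each lung left out. Without both interferon-high lungs, also chosen after seeing the data, these 3 counts were 15, 7 and 62. The 16 flanking genes became 9 with the compared groups alone and 10 to 19 with each lung left out. The 23 list genes became 9 with the compared groups alone.

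For tumor-free lungs, 37 genes past both limits became 20 with DESeq2, 7 with no filter, 246 with the compared groups alone, 5 with GC offsets, 5 with GC offsets and the replicate block, and 2 to 76 with each lung left out. The 8 interaction genes became 195 with DESeq2, 1 with the replicate block, 1 with GC offsets, 1 with both, and 1 to 127 with each lung left out. The cause of these shifts was not tested. Same-numbered lungs of tumor-bearing mice correlated at -0.076 to 0.219 and 2 of 6 pairs passed 0.1, so the numbers were not taken as pairs. With a replicate block, 31 genes passed both limits, 108 an FDR of 0.25 and 10 an FDR of 0.05. The log2 fold change of *Clic1*, 0.01 with all lungs, ranged from -0.024 to 0.055 with each lung left out, with -0.00 without KO replicate 5, -0.024 without KO replicate 6 and -0.01 without WT replicate 4. At 4567220 to 6450362 counts a lung, genes of a few CPM rest on few counts.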
